A study of Homo sapiens with 8 samples.

Results

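The circadian clock genes examined here were CLOCK, ARNTL, PER1, PER2, PER3, CRY1, CRY2, NR1D1, NR1D2 and BHLHE40, taken as all rows with these 10 symbols in the m6A peak lists of control and FTO-knockdown melanoma cells. All 10 had at least 1 row, with 17 of the 19072 peaks of the control list and 16 of the 18551 peaks of the knockdown list, among 10076 genes in all. The cells were Mel624, an established human melanoma line, grown without treatment and carrying a negative control hairpin (shNC) or one directed against FTO (shFTO). The hairpins came in by lentivirus with puromycin selection, so each group was an infected population of the same line. FTO is an m6A demethylase, and the comparison asks where m6A enrichment on mRNA differs once FTO is knocked down. Each group had 2 replicates, each with an m6A-IP and an input library, 8 libraries in all. The sources used here do not say whether the cells were synchronized or at what time of a circadian cycle they were collected. Whether the cells of a library shared a clock phase, and which, is therefore unknown.

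The mammalian clock is a transcriptional feedback loop. CLOCK and BMAL1, the protein of ARNTL, bind together to E-box DNA and activate the PER and CRY genes, whose proteins return to the nucleus and repress the pair. A second loop runs through the nuclear receptors NR1D1 and NR1D2 (REV-ERB alpha and beta), which repress ARNTL, and BHLHE40 (DEC1) competes at E-boxes. Turnover of the clock mRNAs is part of how the loop keeps time, and m6A is one of the marks by which an mRNA is sent to decay or translation.

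A peak here is a stretch of the longest RefSeq isoform of a gene where IP reads outnumbered what the input would give. Its log2 enrichment score compares IP with input reads after each has been set to its median window on that mRNA, so it measures how far a peak stands out from its own mRNA and is not an expression level. The lists hold 1 score per replicate and no read counts. The depth behind each score is therefore unknown, and an mRNA that is too low to read cannot be told apart from one without a peak. FTO mRNA, the target of the hairpin, had 3 peaks in shNC and 2 in shFTO. Peak scores do not show its level, so the knockdown could not be checked in these lists. The authors report an immunoblot that showed FTO knockdown in Mel624 cells. Peaks were listed for 9 of 10 melanocyte marker genes in shNC and for 10 in shFTO, GPR143 being the one added. Of 6 markers each, 0 keratinocyte, 1 fibroblast and 2 leukocyte genes had a peak in either list. No source used here says that the replicates were separate cultures, and the p-values cover the spread among these libraries alone.

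Peaks of 8 of the 10 clock mRNAs held the m6A consensus GGACU, at 16 positions in all. Of these, 12 lay in peaks of both lists. The others were the CLOCK position and 1 PER2 position of shNC, and the other PER2 position and the PER3 position of shFTO. The PER3 position is listed with its peak and counted here, but its motif runs past the end of that peak. CRY1 and NR1D2 had no GGACU in any peak. At least 1 GGACU was in 8 of 17 clock gene peaks of shNC (47.1%) and in 8 of 16 of shFTO (50%), where 36.3% and 38.1% of all peaks held one. All 16 positions could be placed on GENCODE transcripts of the same genes (GRCh38), each at a single place in the genome.

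The sequences below, 5′ to 3′ and in DNA letters, show sites described in the text, with GGACT in capitals and 10 bases on either side. Whether a site bears on the score of its peak was not tested. The stop codon peaks of CLOCK, ARNTL and PER1 had a GGACU in the last exon close to the end of the coding sequence. The PER2 pair marks the peaks that did not overlap between the groups, the CRY2 sites form a cluster in 1 peak, and the BHLHE40 sites lie in one of the strongest clock gene peaks. The number after each gene is the position of the first G on the isoform.
CLOCK 3427: agccggcacaGGACTgacagcttgc
ARNTL 2309: agcagatgctGGACTgggtggccct
PER1 4033: caagctctcaGGACTtggctatgga
PER2 2828: ccagcgccagGGACTgtggcagcac
PER2 3300: ctgtaggggcGGACTgcaaacctgg
CRY2 2891: ggcctgtcctGGACTtgtcagcatc
CRY2 2945: tgagctccaaGGACTcaggcagagg
CRY2 2959: tcaggcagagGGACTcagggatggg
CRY2 2973: tcagggatggGGACTgccaggggca
BHLHE40 907: ccaaagtgatGGACTtcaaggaaaa
BHLHE40 984: gtcatccagcGGACTttcgctcact

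On the genome, the CLOCK site lies at chr4:55435454-55435458 on the minus strand, in exon 23 of 23. The ARNTL site is at chr11:13386709-13386713 on the plus strand, in exon 20 of 20, and the PER1 site at chr17:8141145-8141149 on the minus strand, in exon 23 of 23. Counted from the last coding base before the stop codon, the first G lay 40 bases upstream in CLOCK, 44 in ARNTL and 78 in PER1. The PER2 sites are at chr2:238253431-238253435 and chr2:238252959-238252963 on the minus strand, both in exon 19 of 23. The CRY2 sites run from chr11:45881932 to chr11:45882018 on the plus strand, in the 3′UTR of exon 12, and the BHLHE40 sites are at chr3:4983050-4983054 and chr3:4983127-4983131 on the plus strand, in the coding part of exon 5. The last 3 CRY2 sites are spaced 14 bases apart.

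**Figure D1:**
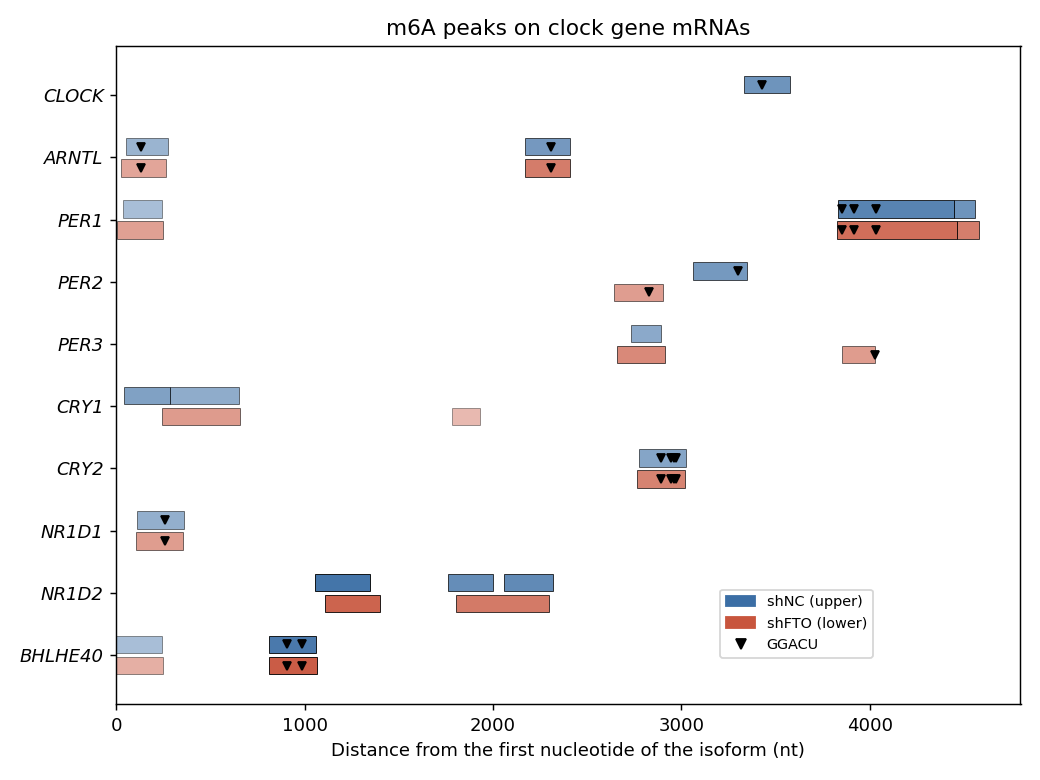
Peaks of the 10 clock mRNAs along the isoform, in nucleotides from its first base, with shNC above and shFTO below in each row, darker bars for higher mean scores and triangles at GGACU. CLOCK has a bar in shNC only, and the PER2 bars of the groups do not overlap.

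The clock gene peaks lay along the whole length of the mRNAs. In shNC, 5 were in the 5′UTR, 1 at the start codon, 5 in the CDS, 3 at the stop codon and 3 in the 3′UTR. In shFTO these counts were 4, 1, 5, 4 and 2. The 5′UTR share was 29.4% in shNC and 25% in shFTO, where 6.56% and 6.64% of all peaks were in the 5′UTR. The start codon share went the other way, at 5.88% and 6.25%, against 16.6% and 16.8% of all peaks. CDS shares were 29.4% and 31.25%, against 32.7% and 32.1%. Those of the 3′UTR were 17.6% and 12.5%, against 21.8% and 21.2%. The stop codon share was below that of all peaks in shNC (17.6% against 19.4%) and above it in shFTO. The 5′UTR peaks came from ARNTL, CRY1, NR1D1 and BHLHE40 in each list, and CRY1 gave 2 of the 5 in shNC. With 1 list per group and few peaks these shares carry no test.

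CLOCK and ARNTL, which encode the activating pair of the loop, each had a peak at the stop codon in shNC, and ARNTL had one in shFTO too. The CLOCK peak, at nucleotides 3335 to 3576 of NM_001267843, scored 3.29 and 3.55 in the shNC replicates (3.42 ± 0.19, SD, n = 2). This was above 73.3% of the peaks of that list. No CLOCK peak was listed in shFTO, and CLOCK was the only one of the 10 without a row in one of the lists. Thus 9 of the 10 clock genes had a row in both lists, where 8692 of all 10076 genes did. A peak outside the list has no score, so the CLOCK difference has no size and no test.

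The ARNTL stop codon peak had almost the same borders in the groups, 2170 to 2408 in shNC and 2168 to 2408 in shFTO, around the GGACU at 2309. It scored 2.89 and 3.47 in shNC (3.18 ± 0.41) and 3.58 and 3.68 in shFTO (3.63 ± 0.07). Both shFTO replicates were thus above both shNC replicates. The log2 ratio was 0.45 (standard error 0.31, 95% interval -0.26 to 1.16, adjusted p = 0.934 from limma), so the difference was within the spread that the fit allows. It was 0.16 without shNC replicate 1 and 0.74 without shNC replicate 2. ARNTL also had a 5′UTR peak with a GGACU at position 132. It scored 2.12 and 1.57 in shNC and 2.49 and 1.36 in shFTO. There the shNC values lay inside the range of the shFTO values, and the log2 ratio was 0.09 (adjusted p = 0.999 from limma).

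The 3 PER genes encode the repressor proteins whose build-up and decay set the pace of the clock, and their peaks differed between the genes. PER1 carried 3 peaks in each list, at the start codon, at the stop codon and in the 3′UTR. PER2 carried 1 in each list at different places, and PER3 carried 1 in shNC and 2 in shFTO. PER1 (chromosome 17, 8140472 to 8152404) had the strongest of these, a wide stop codon peak of 619 nt in shNC and 638 nt in shFTO that held all 3 of its GGACU.

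The PER1 stop codon peak scored 4.18 and 4.22 in shNC (4.20 ± 0.03) and 3.99 and 4.41 in shFTO (4.20 ± 0.30). The means were equal to the second decimal and the shNC replicates lay between the shFTO replicates. The 3′UTR peak that follows it scored 3.10 and 3.73 in shNC and 3.35 and 3.75 in shFTO, again with overlapping replicates. Because the shFTO stop codon peak also reached 17 nt into the shNC 3′UTR peak, neither was in the main comparison. Where at least 50% of each peak had to overlap, they could be fitted, with log2 ratios of -0.005 (95% interval -0.68 to 0.67) and 0.14 (-0.61 to 0.88), and adjusted p = 0.9996 and 0.991 from limma.

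At the PER1 start codon the scores were 1.45 and 1.27 in shNC (1.36 ± 0.12) and 1.52 and 2.76 in shFTO (2.14 ± 0.88). Replicate 1 of shFTO was close to the shNC replicates and replicate 2 was far above them. The log2 ratio was 0.78 (standard error 0.41, 95% interval -0.15 to 1.71, adjusted p = 0.877 from limma). It was 0.16 without shFTO replicate 2 and 1.40 without shFTO replicate 1. This peak held no GGACU.

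PER2 (chromosome 2, 238244044 to 238300065) had a CDS peak in each group, but the 2 peaks were 156 nt apart. In shNC it was at nucleotides 3061 to 3350 and scored 3.79 and 2.52 (3.16 ± 0.90). In shFTO it was at 2641 to 2904 and scored 2.20 and 2.34 (2.27 ± 0.10). The GGACU at 3300 lay 96.5 nt downstream of the centre of the shNC peak. The GGACU at 2828 lay 57.5 nt downstream of the centre of the shFTO peak. The shNC replicates were far apart and both were above the shFTO replicates, but the scores belong to different stretches of the mRNA and were not compared. Such peaks without an overlapping partner made up 2 of the 17 clock gene peaks in shNC and 3 of the 16 in shFTO, where the shares over all peaks were 14.6% and 14.2%.

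PER3 had a CDS peak in each group, which covered nucleotides 2731 to 2890 in shNC and was wider on both sides in shFTO, from 2661 to 2915. It scored 2.55 and 2.17 in shNC (2.36 ± 0.27) and 2.90 and 3.26 in shFTO (3.08 ± 0.26), so that both shFTO replicates were above both shNC replicates. The log2 ratio was 0.72 (standard error 0.31, 95% interval 0.02 to 1.42), with an unadjusted p of 0.0439 in limma and an adjusted p of 0.823. The shFTO list also had a PER3 stop codon peak, at 3851 to 4028, with scores of 1.94 and 2.69 (2.31 ± 0.53). Its GGACU starts at 4027, 72 bases past the last coding base, and runs past the end of the peak. No PER3 stop codon peak was listed in shNC.

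CRY1 and CRY2 encode the cryptochromes, the partners of the PER proteins and the main repressors of CLOCK and BMAL1, and their m6A peaks lay in different regions. CRY1 (chromosome 12, 106991364 to 107093549) had 5′UTR peaks in both lists and a CDS peak in shFTO, and CRY2 (chromosome 11, 45847118 to 45883244) was marked in the 3′UTR in both. CRY2 had the lowest p of the clock gene peaks. Its single peak, at 2778 to 3026 in shNC and 2766 to 3020 in shFTO, held all 4 GGACU of the cluster shown above. It scored 2.70 and 2.47 in shNC (2.59 ± 0.16) and 3.32 and 3.42 in shFTO (3.37 ± 0.07).

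Both shFTO replicates were above both shNC replicates of CRY2, and the replicates within each group were close. The log2 ratio of 0.78 (standard error 0.29, 95% interval 0.13 to 1.43) is a score 1.72-fold higher, with an unadjusted p of 0.0240 and an adjusted p of 0.744 in limma. It did not pass the test over all compared peaks. CRY2 was above 51.3% of all peaks in shNC and 72.7% in shFTO.

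The 5′UTR of CRY1 held abutting peaks at 41 to 287 and 288 to 651 in shNC and 1 peak at 244 to 657 in shFTO. The first of these scored 3.16 and 2.42 (2.79 ± 0.52), the second 2.46 and 1.99 (2.23 ± 0.33), and the shFTO peak 2.42 and 2.28 (2.35 ± 0.10). The shFTO values lay within the range of the second shNC peak. Between these, where at least 50% of each had to overlap, the log2 ratio was 0.13 (95% interval -0.56 to 0.81, adjusted p = 0.991 from limma). This ratio leaves out the first shNC peak, which the shFTO peak overlapped by 44 nt and which had the highest mean of the 5′UTR peaks of CRY1. A CRY1 peak in the CDS, at 1781 to 1930, was listed in shFTO only and scored 1.06 and 1.13. These values are just above the log2 score of 1 that the authors required of a window, and 3.15% of shFTO peaks scored lower.

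**Figure D2:**
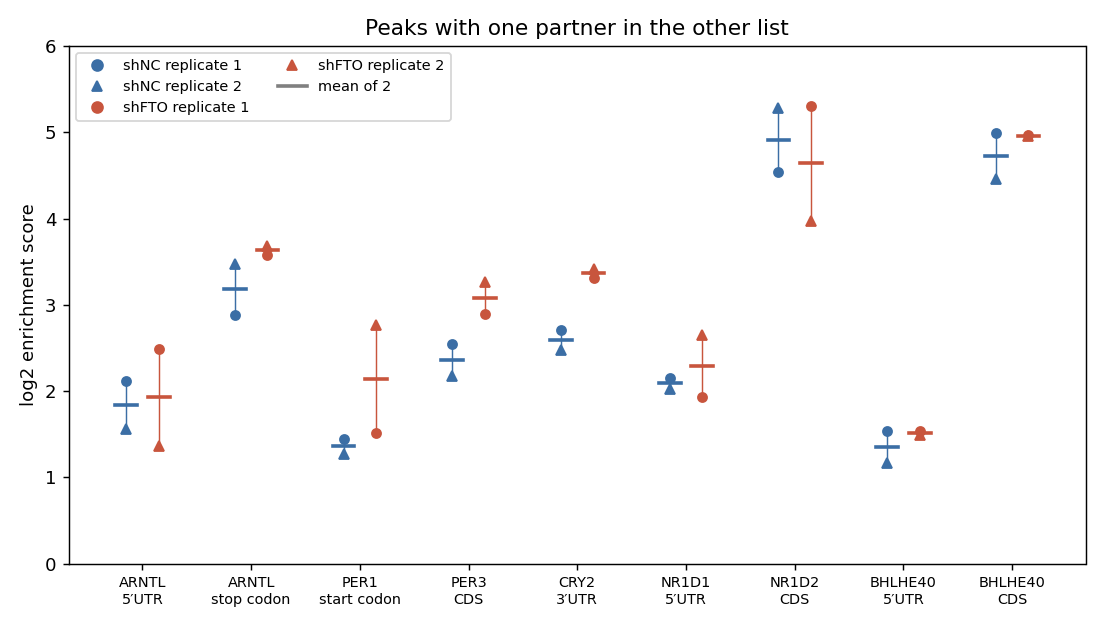
Log2 enrichment scores of the 9 clock gene peaks with exactly 1 overlapping peak in the other list, as circles for replicate 1, triangles for replicate 2 and bars for the mean. The replicates of the groups are separate at the ARNTL stop codon, the PER1 start codon, the PER3 CDS and the CRY2 3′UTR, with the shFTO values above in each.

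The negative regulators outside the PER and CRY families included the strongest clock gene peaks. NR1D2 and BHLHE40 had CDS peaks with mean scores of 4.91 and 4.73 in shNC and 4.64 and 4.96 in shFTO, each above at least 92.5% of the peaks of its list. NR1D1 carried only a weaker 5′UTR peak. Along with PER1, NR1D2 and BHLHE40 were the 3 clock genes whose highest peak exceeded a log2 score of 4 in both lists.

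BHLHE40 (chromosome 3, 4979437 to 4985323), a helix-loop-helix repressor, had its main peak at 812 to 1062 in shNC and 814 to 1063 in shFTO, around 2 GGACU. It scored 4.997 and 4.46 in shNC (4.73 ± 0.38) and 4.97 and 4.95 in shFTO (4.96 ± 0.01). The shFTO values lay between the shNC values, and the log2 ratio was 0.23 (95% interval -0.47 to 0.93, adjusted p = 0.976 from limma). Its 5′UTR peak began at the first nucleotide and scored 1.53 and 1.17 in shNC and 1.54 and 1.49 in shFTO. There the log2 ratio was 0.16 (adjusted p = 0.989 from limma). BHLHE41 (DEC2), the closest relative of BHLHE40, also had its highest peak in the CDS, at 774 to 1046 in shNC, with means of 4.87 ± 0.31 and 4.65 ± 0.28 and 1 GGACU.

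NR1D1 (chromosome 17, 40092793 to 40100589) had a single peak at 111 to 357 in shNC and 108 to 352 in shFTO, with a GGACU at 259 in the 5′UTR. It scored 2.16 and 2.03 in shNC (2.09 ± 0.09) and 1.93 and 2.65 in shFTO (2.29 ± 0.51). The shFTO replicates lay on either side of the shNC replicates, and the log2 ratio was 0.20 (95% interval -0.55 to 0.95, adjusted p = 0.985 from limma).

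NR1D2 (chromosome 3, 23945286 to 23980617) carried 3 shNC peaks and 2 shFTO peaks, all between nucleotides 1058 and 2320 and all without GGACU. The first lay at 1058 to 1346 in shNC and was shifted to 1108 to 1399 in shFTO. Where peak centres had to lie within 50 bp, it was not compared. It scored 4.54 and 5.28 in shNC (4.91 ± 0.53) and 5.31 and 3.98 in shFTO (4.64 ± 0.94). The log2 ratio was -0.27 (standard error 0.46, 95% interval -1.31 to 0.77, adjusted p = 0.986 from limma), the only negative value among the 9 clock gene peaks compared one to one. The other shNC peaks, at 1760 to 2000 and 2058 to 2320, scored 3.21 and 4.25 and 3.23 and 4.52. They faced a single shFTO peak at 1804 to 2296, labelled as a stop codon peak, with scores of 4.30 and 3.20. Within each group, the replicates differed in the same direction at every NR1D2 peak. Replicate 2 was higher by 0.74, 1.05 and 1.29 at the 3 shNC peaks, and in shFTO replicate 2 was lower at each of the 2 peaks, with differences of -1.33 and -1.10.

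**Figure D3:**
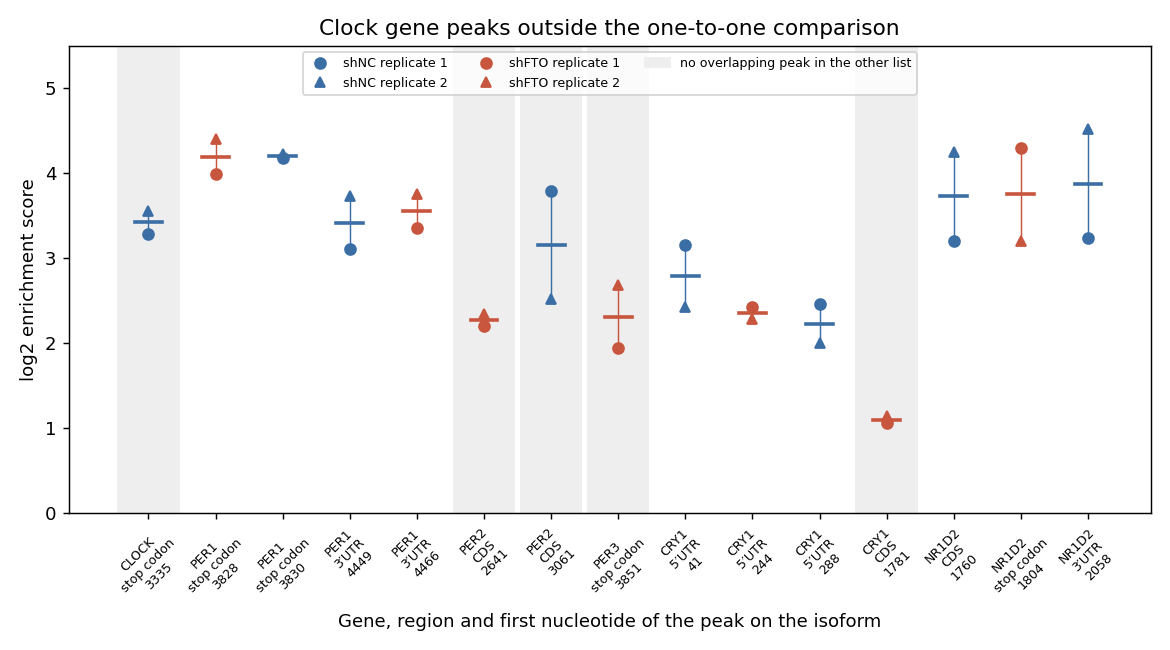
Log2 enrichment scores of the clock gene peaks that had no partner (grey background) or more than 1 partner in the other list, as circles for replicate 1, triangles for replicate 2 and bars for the mean. CLOCK appears in shNC only, and the NR1D2 replicates are far apart in both groups.

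Over the clock genes as a group, 9 peaks in 7 genes could be compared one to one, and 0 of them had an adjusted p under 0.05 in limma, as was the case for all 12117 compared peaks (0.0%). An unadjusted p under 0.05 was reached by 2 of the 9, in CRY2 and PER3, and by 5.98% of all compared peaks. Both were higher in shFTO, where 2.3% of all compared peaks were called, and 0 were lower, where 3.68% of all were. A log2 ratio of at least 0.5 was found at 3 of 9 and at 7.63% of all. The mean score was higher in shFTO at 8 of 9, against 48.4% of all compared peaks. Both shFTO replicates were above both shNC replicates at 4 of 9 (15.7% of all) and below them at 0 (17.7% of all). The median log2 ratio of the 9 was 0.23, from -0.27 to 0.78, and that of all compared peaks -0.01. These counts cover a few peaks, some of them on the same mRNA, and carry no test of their own. Without shNC replicate 2, 6 of the 9 were higher and the median was 0.13. The log2 ratios at CRY2 and PER3 were then 0.66 and 0.53. Without shFTO replicate 2, 8 of the 9 were higher, and CRY2 and PER3 had 0.73 and 0.54. Without shFTO replicate 1, 7 of the 9 were higher and the median was 0.50. The log2 ratio was then 1.40 at the PER1 start codon, 0.90 at the PER3 CDS, 0.83 at CRY2 and -0.93 at the NR1D2 CDS peak. Each of these fits left 1 library in a group, and the share of all compared peaks that were higher was not counted for them.

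**Figure D4:**
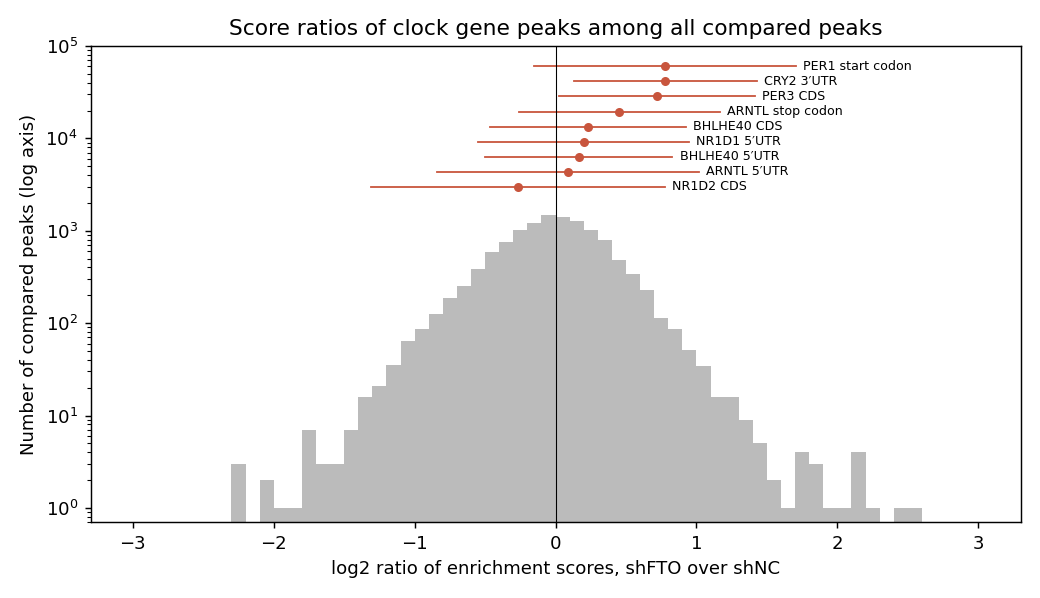
Log2 ratios of shFTO over shNC for all 12117 compared peaks (grey, number of peaks on a log axis) and for the 9 clock gene peaks (points with 95% intervals from limma, the height of a point having no meaning). The clock gene values run from -0.27 to 0.78, inside the spread of all peaks, and 7 of the 9 intervals include 0.

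A further list held 20 genes that work with the core clock or are driven by it. Of these, 12 had a peak in both lists and 8 in neither, among them ARNTL2, CIART, CSNK1E, DBP and HLF. The 14 peaks that could be compared, in 9 genes, had a median log2 ratio of -0.16, with 6 higher and 8 lower in shFTO, where 48.4% of all compared peaks were higher. An unadjusted p under 0.05 was reached by 1 of the 14 and by 5.98% of all, and 0 passed an adjusted p of 0.05 in limma. These counts were near those of all compared peaks. A log2 ratio of at least 0.5 was found at 3 of the 14, against 7.63% of all. Both shFTO replicates were above both shNC replicates at 2 of the 14 (15.7% of all) and below them at 5 (17.7% of all). The difference from the 10 clock genes was not tested. With only the highest peak of each gene the median was 0.13, so its sign depends on which peaks are counted. NAMPT, which encodes the rate-limiting enzyme of NAD salvage, had the highest ratio and the only unadjusted p under 0.05. Its start codon peak scored 2.50 and 2.59 in shNC and 3.05 and 3.87 in shFTO, which gives a log2 ratio of 0.91 (standard error 0.34, 95% interval 0.13 to 1.69) and an adjusted p of 0.757 in limma. TEF, a transcription factor of clock output, had the lowest ratio, at a 3′UTR peak from 3390, with 2.04 and 2.82 in shNC and 1.77 and 1.91 in shFTO, a log2 ratio of -0.59 (adjusted p = 0.899 from limma).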

How the data were processed

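m6A-seq of Mel624 cells with shNC or shFTO was used (2 replicates per group, IP and input). The authors trimmed adapters with cutadapt, aligned reads to hg38 with TopHat2 2.0.14 and projected them onto 1 RefSeq isoform per gene, the longest. They tested windows of 100 bp in steps of 10 bp (IP against input, Fisher exact test with an FDR limit) and merged windows whose log2 score reached 1. The deposited log2 scores and the deposited peak positions (first and last nucleotide) were used as given. The sources used here do not say how the replicates gave 1 list.

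shNC and shFTO peaks of an isoform that overlapped each other by at least 1 nt, and no other peak, were compared with limma 3.58.1 in R 4.3.3 (lmFit and eBayes, group as the only term, 2 replicates against 2) over all 12117 such pairs, with Benjamini-Hochberg adjustment. The fit was run on simulated data with independent noise and changes of set size, to check that it returned those sizes. The simulation lacked the correlation between deviations of same-numbered replicates that the data show. It is not used here as a measure of false calls. GGACU positions were those of the lists, and their surroundings came from GENCODE 44 transcripts on which all listed positions of a gene and their regions matched, with no further GGACU in its peaks and any stop codon peak within 200 nt of the coding end. Gene positions came from RefSeq (GRCh38.p14), where ARNTL is named BMAL1. The rule for named genes took all 10 members, and from the clock-associated list the highest and the lowest ratio, any unadjusted p under 0.05 and the genes without rows, of which not all are reported here. BHLHE41 and the marker GPR143 were named after their values were seen. The members and lists were chosen with earlier results of these data known. Alternatives were other overlap rules, a log2 score of at least 2, a log2 score of at least 1 in both replicates, centring, a trend in eBayes, the replicate block, leaving out each replicate, 1 peak per gene, and GGACU within 50 nt of the peak centre. Crossed replicate numbers, and scores of joined abutting peaks, were chosen after seeing the data. Tables and plots were made in Python 3.11.15 with pandas 2.3.3 and matplotlib 3.10.9.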

Additional observations from a re-analysis of the deposited data

How the results depend on the processing

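Under the alternatives that were run, 0 clock gene peaks had an adjusted p under 0.05 in limma. Leaving out 1 library gave median log2 ratios of the 9 clock gene peaks from 0.13 to 0.50. Single ratios changed sign when 1 library was left out, with ranges of -0.48 to 0.65 at the ARNTL 5′UTR peak, -0.0193 to 0.35 at the BHLHE40 5′UTR peak, -0.0375 to 0.50 at the BHLHE40 CDS peak, -0.16 to 0.56 at the NR1D1 peak and -0.93 to 0.40 at the NR1D2 CDS peak. The ratios at the ARNTL stop codon, the PER1 start codon, the PER3 CDS and the CRY2 3′UTR kept their sign under every alternative in which the peak was compared, with ranges of 0.16 to 0.74, 0.16 to 1.40, 0.53 to 0.91 and 0.66 to 0.89. In fits without 1 library, the group with 1 library gave no spread of its own. The spread then came from the other group and, through eBayes, from all compared peaks. With the replicate block, 1 of the 9 peaks, in CRY2, had an unadjusted p under 0.05 (0.0487), against 2 without it (CRY2 and PER3), the median log2 ratio was 0.23 in both, and 0 passed the adjusted test. The labels give no more than a shared number for these replicates. PER3 also lost this unadjusted call with a trend in eBayes (unadjusted p of 0.0628 and adjusted p of 0.881 in limma) and with a mean log2 score of at least 2 (unadjusted p of 0.0585 and adjusted p of 0.796 in limma). The share of all compared peaks at an unadjusted p under 0.05 was not counted under these alternatives. Neither CRY2 nor PER3 kept its unadjusted call in every fit that left out 1 library. Such fits are given here by their log2 ratios only. Deviations of same-numbered replicates had r = -0.27 over all compared peaks, and with crossed numbers, an alternative added after seeing the data, 13 peaks of all genes and 0 clock gene peaks passed an adjusted p of 0.05. With peaks of a mean log2 score of at least 2 only, 14 clock gene peaks of shNC and 13 of shFTO remained. Of these, 3 of shNC and 2 of shFTO were in the 5′UTR, and 0 of shNC and 1 of shFTO at the start codon. The shares over all peaks at this limit were not counted. Within 50 nt of the peak centre, 6 clock gene peaks of shNC and 5 of shFTO held GGACU, where 18.0% and 18.8% of all peaks did. The scores carry no read counts, so no limit by depth could be set.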
